A study of Mus musculus with 8 samples.

Results

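The clustered protocadherins are cell surface adhesion proteins of the cadherin superfamily, encoded by 3 gene clusters named alpha, beta and gamma that lie one after the other on the same strand. Members were taken by symbol from the deposited gene table: 57 of its 20943 genes carry the name of an alpha member (12 numbered and the C-type pair Pcdhac1 and Pcdhac2), a beta member (21) or a gamma member (12 of type A, 7 of type B and 3 of type C). RNA was sequenced from 8 malignant peripheral nerve sheath tumors (MPNST) of mice, sarcomas of the Schwann cell lineage, 5 labelled PRC2 wildtype and 3 labelled PRC2 loss. The mice of both groups carried Plp-CreERT, a tamoxifen-inducible recombinase under a promoter of the Schwann and oligodendrocyte lineages, with floxed alleles of the Ras brake Nf1(f/f) and of Cdkn2a(f/f), which encodes cell cycle inhibitors. Tamoxifen (0.4 mg) was given to all of them as newborns, from day 0 to day 3, and every tumor is labelled Nf1(-/-) and Cdkn2a(-/-); ages at collection are not in the labels. The PRC2 loss tumors alone came from mice with Eed(f/f) as well and are labelled Eed(-/-). Eed encodes a subunit that Polycomb repressive complex 2 (PRC2) needs to methylate histone H3 at lysine 27. By their codes, PRC2 loss tumor 1 is from a paraspinal nerve on the right, under a number of its own, and PRC2 loss tumors 2 (left) and 3 (right) are from sciatic nerves under a common number. Wildtype tumors 1 and 2 have a code in common, as do wildtype tumors 3 and 4, which makes 3 wildtype animal numbers against 2 for PRC2 loss. The labels do not say whether a common number means 1 mouse. Tumors of 1 mouse would not be independent samples, and the p-values given here treat all 8 as independent.

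Each alpha or gamma transcript joins 1 large variable exon, which has its own promoter and encodes the extracellular, membrane-spanning and upper cytoplasmic part, to constant exons shared by the whole cluster. Beta genes are separate and lack such constant exons. In neurons each cell uses a small, largely random set of the numbered promoters, chosen through DNA methylation, the insulator protein CTCF, cohesin and distant enhancers, while the C-type promoters are used more evenly; the resulting surface mixtures bind like to like and let a neuron tell its own branches from others. On mouse chromosome 18 (GRCm38) RefSeq places the alpha members between 36930285 and 37188897, the beta members between 37294840 and 37521419 and the gamma members between 37661775 and 37841873. In GENCODE M21 gene models, 2.86 kb of exon sequence belongs to all 13 alpha members with a model, a median of 53.4% of a member's exon length, and 2.12 kb to all 22 gamma members, a median of 43.9%. No exon base is common to the 21 beta members. How the authors divided reads from the shared exons is not given in the sources used here, so the value of a single alpha or gamma member is uncertain and members of these 2 clusters are not independent of each other.

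Values are the deposited quantile-normalized log2 counts, in which a difference of 1 is a 2-fold change before the unknown offset of the log is considered. Eed ran from 8.76 to 8.96 in PRC2 loss and from 10.17 to 10.33 in wildtype tumors. None of 10 Schwann cell markers was at 0 in any tumor. Their mean level ran from 6.35 to 10.29 in wildtype and from 12.02 to 12.74 in PRC2 loss tumors, and 7 of the 10 were higher in PRC2 loss by limma, a linear model with moderated variances (adjusted p below 0.05 over 20807 genes). Wildtype tumors were not alike: tumors 1 and 2, which share a code, had means of 10.08 and 10.29, and tumors 3, 4 and 5 had 7.83, 7.43 and 6.35.

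All 57 members were tested without a filter on low values. In limma 14 were higher and 4 lower in PRC2 loss, with a median log2 difference of 0.69; over all genes tested the median was -0.12. The 18 calls are 31.6% of the members, against 35.7% of all genes, so the clustered protocadherins as a whole were not called more often than other genes. By direction, 24.6% of members were higher against 16% of all genes, and 7.0% lower against 19.6%. Groups did not overlap for 19 members (33.3%), against 38.3% of all genes; PRC2 loss lay above wildtype for 14 of them and below for 5, and for all genes the shares were 16.9% above and 21.4% below. Pcdha11, among the 14, and Pcdha7, among the 5, had values at the bottom of the scale, described with the numbered alpha members. Calls were upward in the alpha cluster (6 of 14) and the beta cluster (5 of 21), while the gamma cluster held 3 higher and 4 lower members, the lower ones including all 3 of its C-type members. Centred on 15 housekeeping genes, which raised the median difference of all genes from -0.12 to 0.43, limma called 7 alpha, 10 beta and 4 gamma members higher and 2 gamma members lower. The share of all genes called with this centring was not counted, so these counts have no background beside them. With tumors of 1 animal number averaged, limma called 4 alpha, 3 beta and 0 gamma members higher (3 gamma members at an unadjusted p under 0.05) and 4 members lower. These 4 were not the same set as before: Pcdhgc4 was lost (limma adjusted p = 0.0602) and Pcdhga10 was gained (limma adjusted p = 0.0273).

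**Figure D1:**
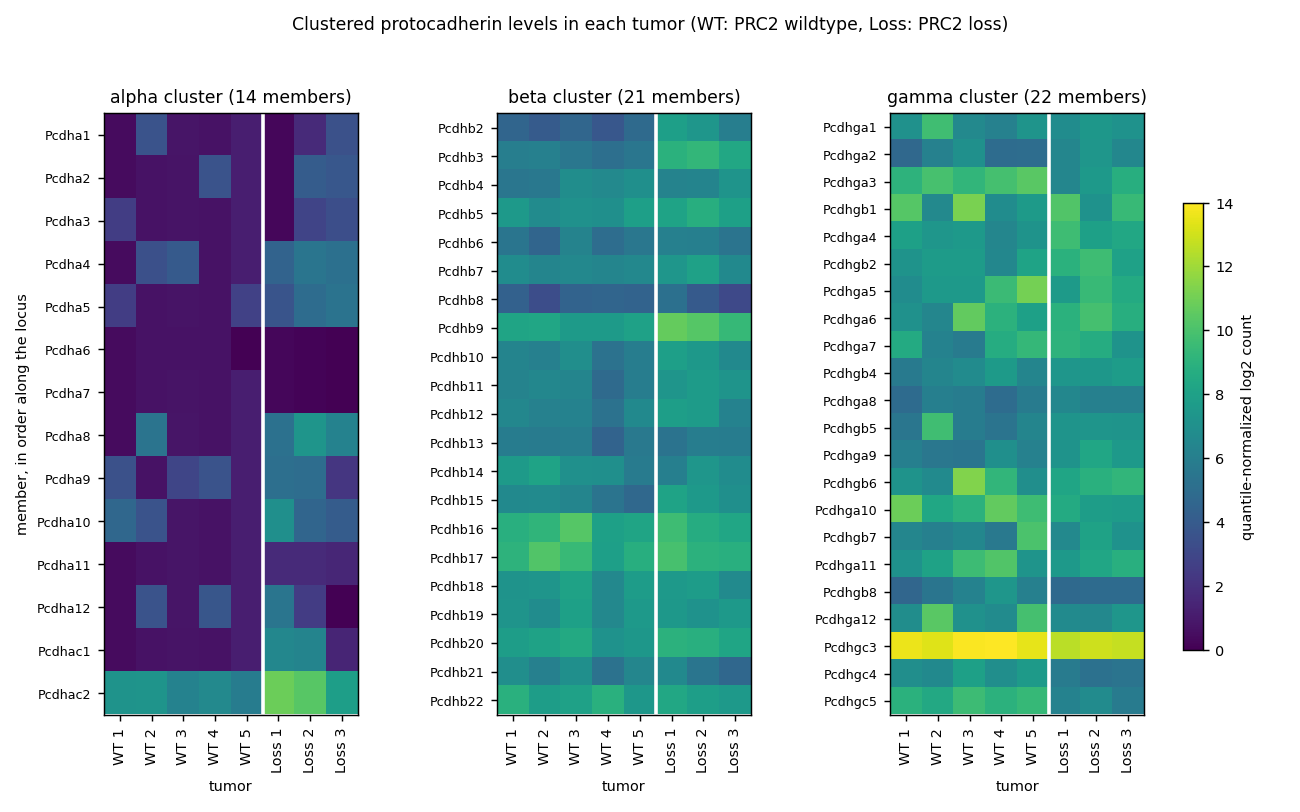
Quantile-normalized log2 counts (color) of the 14 alpha, 21 beta and 22 gamma members (rows, in order along the locus) in 5 PRC2 wildtype and 3 PRC2 loss tumors (columns, separated by a white line). Most alpha values lie at the low end of the scale in wildtype tumors, Pcdhgc3 is bright in every tumor, and gamma A and B members show bright cells in single wildtype tumors.

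The C-type members, which end the alpha and gamma clusters, moved in opposite directions. Pcdhac2, the alpha C-type protein that serotonergic axons need to spread evenly through their targets, had values of 7.20, 7.23, 6.20, 6.60 and 5.89 in the 5 wildtype tumors, in order, and of 10.88, 10.38 and 7.85 in the 3 PRC2 loss tumors. The groups did not overlap, but PRC2 loss tumor 3 came close to the highest wildtype tumor. The log2 difference was 3.08 (SE 0.676; limma adjusted p = 0.00909; two-sided exact permutation p = 0.0179 over 56 splits, the smallest this design allows), or 8.44-fold. Pcdhac1 was at 6.49 and 6.31 in PRC2 loss tumors 1 and 2 and at 1.47 in PRC2 loss tumor 3, which shares its animal code with tumor 2. In wildtype it lay between 0.40 and 1.18, below the lowest common step of each tumor's values, which is described with the numbered alpha members. Its log2 difference of 4.02 (SE 1.057) passed limma with adjusted p = 0.0192, but not without PRC2 loss tumor 1 (0.0865) or tumor 2 (0.0905). For Pcdhac2 the limma adjusted p without PRC2 loss tumor 2 was 0.0524.

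Pcdhgc3, a gamma C-type protein that binds the Wnt pathway scaffold Axin1, had the highest mean level per kb of exon of the 56 members with a length, 11.23 in wildtype and 10.29 in PRC2 loss. Its values were 13.60, 13.32, 13.92, 14.12 and 13.48 in wildtype and 12.54, 12.92 and 12.78 in PRC2 loss. All 3 PRC2 loss tumors lay below all wildtype tumors, with a log2 difference of -0.94 (SE 0.203; limma adjusted p = 0.00838), or 1.92-fold lower. Pcdhgc4, the gamma member on which survival of many neurons depends, stood at 6.92, 6.64, 7.93, 6.94 and 7.61 in wildtype. In PRC2 loss it was at 5.82, 5.23 and 5.37, 3.33-fold lower (log2 difference -1.73, SE 0.392; limma adjusted p = 0.0104). Pcdhgc5, which is expressed late in the developing brain, showed the strongest fall among the members. From 8.94, 8.46, 9.59, 9.02 and 9.39 in wildtype it fell to 6.22, 6.77 and 5.81 in PRC2 loss, 7.04-fold lower (log2 difference -2.82, SE 0.324; limma adjusted p = 0.000656). No PRC2 loss tumor reached the wildtype range for any of the 3, and the two-sided exact permutation p was 0.0179 for each. Centring on the housekeeping genes left the Pcdhgc3 and Pcdhgc4 differences at -0.39 and -1.19 and ended both calls (limma adjusted p = 0.104 and 0.0557); the Pcdhgc5 difference was then -2.27 (limma adjusted p = 0.00114). Averaging by animal number also ended the Pcdhgc4 call (limma adjusted p = 0.0602).

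**Figure D2:**
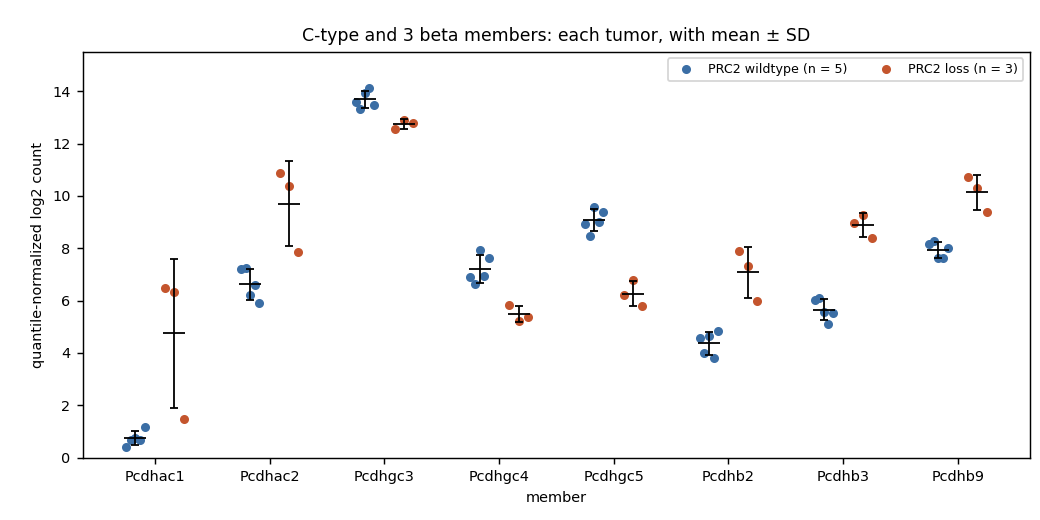
Quantile-normalized log2 counts of the 5 C-type members and the 3 beta members with the smallest p in PRC2 wildtype (blue, n = 5) and PRC2 loss (orange, n = 3) tumors; points are tumors, bars the mean ± SD. Pcdhac1 and Pcdhac2 are higher and Pcdhgc3, Pcdhgc4 and Pcdhgc5 lower in PRC2 loss, with 1 PRC2 loss tumor close to the wildtype points for Pcdhac1 (1.47) and Pcdhac2 (7.85).

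The numbered alpha members were near the bottom of the scale, above all in wildtype tumors. In each tumor 707 to 861 genes share 1 most frequent value above 0, the lowest common step of the scale, between 1.13 and 1.70 in wildtype and at 0.333 in each PRC2 loss tumor. Of 70 alpha values in wildtype tumors 50 lay below this step, as did 10 of 42 in PRC2 loss tumors, and no beta or gamma value did. Within most tumors these low alpha values were close together: 9 members stood at 0.40 in wildtype tumor 1, 8 at 0.69 in wildtype tumor 2 and 5 at 0.22 in PRC2 loss tumor 1, while 11 ran from 0.69 to 0.81 in wildtype tumor 3. In wildtype tumor 5 the 12 low values ran from 0.00 for Pcdha6 to 1.18. The step itself differs between the groups, so the counts of values below it use unlike cutoffs and cannot be compared directly. Pcdha6 and Pcdha7 were below it in all 8 tumors. Pcdha11 was below it in all 5 wildtype tumors (0.40 to 1.18) and at 1.48 to 1.68 in PRC2 loss, within the range of the wildtype steps, so its call (log2 difference 0.86; limma adjusted p = 0.0252) compares values at the bottom of the scale. The other calls rested on higher values. Pcdha8 was at 5.23, 7.29 and 6.22 in PRC2 loss and between 0.40 and 1.18 in 4 wildtype tumors, while wildtype tumor 2, at 5.40, lay inside the PRC2 loss range (log2 difference 4.55, SE 1.16; limma adjusted p = 0.0169). Without PRC2 loss tumor 2 or 3 the limma adjusted p was 0.0797 or 0.0641. Pcdha5 had PRC2 loss values of 3.62, 4.97 and 5.32 and wildtype values of 2.54, 0.69, 0.73, 0.69 and 2.68, with no overlap (log2 difference 3.17, SE 0.680; limma adjusted p = 0.00823). With animal numbers averaged, the calls of Pcdha5 (limma adjusted p = 0.0708) and Pcdha11 (0.132) ended, and with a pseudocount of 16 the log2 differences of Pcdha8, Pcdha5 and Pcdhac1 came to 2.07, 1.13 and 1.70 and the alpha median moved from 1.56 to 0.56. Pcdha4 was at 4.48, 5.45 and 5.18 in PRC2 loss, above all wildtype tumors, of which the highest were tumors 3 and 2 at 3.97 and 3.44 (log2 difference 3.10; limma adjusted p = 0.0284). Its call ended without any 1 of the PRC2 loss tumors or of wildtype tumors 1, 4 and 5. The alpha members above the step differed from tumor to tumor. Pcdha10 was at 6.97, 4.55 and 4.09 in PRC2 loss and at 4.67, 3.56, 0.81, 0.70 and 1.18 in wildtype, and it did not pass (limma adjusted p = 0.0657). Pcdha12 was at 5.44 in PRC2 loss tumor 1 and listed at 0.00 after rounding in PRC2 loss tumor 3, while Pcdha1 was at 0.22 in the first and at 3.45 in the other. Pcdha4, Pcdha10, Pcdha12 and Pcdha1 were given with their values after these were seen. No alpha member was lower in limma, and 1, Pcdha7, had lower values at an unadjusted p under 0.05; it was called lower with array weights, with no variance trend and without wildtype tumor 1. Leaving out members with a mean below 3 over all 8 tumors kept 5 alpha members, of which 3 were higher. Of these 3, Pcdha8 and Pcdha4 had wildtype means of 1.70 and 1.93 and were kept through their PRC2 loss values. Leaving out PRC2 loss tumor 2 instead left 2 of 14 higher.

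In the beta cluster, whose single genes share no constant exon, the calls fell at one end. In order along the locus the first 10 members, Pcdhb2 to Pcdhb11, held all 5 calls with a median log2 difference of 1.14, while none of the 11 members from Pcdhb12 to Pcdhb22 was called (median 0.16; 2 were higher and 0 lower at an unadjusted p under 0.05). This division of the cluster was made after the values were seen and was not tested. With housekeeping centring, and likewise with array weights, 7 of the first 10 and 3 of the last 11 were called higher. With members of a mean below 3 left out, or with no variance trend, 1 of the last 11 was called. The same held without wildtype tumor 2, wildtype tumor 3 or PRC2 loss tumor 3. The share of all genes called was not counted for these settings. Pcdhb15, in the last 11 and named after its values were seen, narrowly missed the threshold with no overlap (log2 difference 1.57, limma adjusted p = 0.0528). Its difference exceeded those of the called Pcdhb11 (1.44) and Pcdhb5 (1.05). Pcdhb3 rose from wildtype values of 6.01, 6.09, 5.57, 5.10 and 5.51 to PRC2 loss values of 8.96, 9.29 and 8.39, 9.32-fold higher (log2 difference 3.22, SE 0.353; limma adjusted p = 0.000535). The lowest PRC2 loss tumor lay well above the highest wildtype tumor. Pcdhb9 rose from 8.16, 8.27, 7.63, 7.62 and 8.02 in wildtype to 10.71, 10.31 and 9.40 in PRC2 loss, 4.60-fold higher (limma adjusted p = 0.00147). Pcdhb2 rose from 4.57, 4.00, 4.63, 3.80 and 4.83 to 7.91, 7.33 and 5.99, 6.53-fold higher (limma adjusted p = 0.00579). For these 3 genes the groups did not overlap, the two-sided exact permutation p was 0.0179, and PRC2 loss tumor 3 was the lowest of its group. Pcdhb3 and Pcdhb9 were called in all 18 alternative fits, and Pcdhb2 in 17 of 18.

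The 2 remaining beta calls were smaller and less stable. Pcdhb11 had wildtype values of 6.24, 6.48, 6.36, 4.84 and 5.95 and PRC2 loss values of 7.30, 7.71 and 7.23 (2.72-fold higher; limma adjusted p = 0.0321); leaving out any 1 of the PRC2 loss tumors ended its call (limma adjusted p = 0.0693 to 0.111), as did leaving out wildtype tumor 5. Pcdhb5, at 7.97 to 8.80 in PRC2 loss and 6.73 to 7.89 in wildtype, was 2.08-fold higher (limma adjusted p = 0.0416) and was called in 7 of 18 alternative fits; it was lost without any 1 of the PRC2 loss tumors or of wildtype tumors 1 to 4. Averaging animal numbers ended both calls (limma adjusted p = 0.0784 for Pcdhb11 and 0.154 for Pcdhb5). No beta member was lower in limma, nor at an unadjusted p under 0.05. The members that were not called included Pcdhb17, with wildtype values of 9.06, 10.22, 9.44, 7.88 and 8.79 and PRC2 loss values of 9.91, 8.99 and 8.81 (limma adjusted p = 0.816). Wildtype tumor 4 was the lowest of the 8 tumors for 13 of the 21 beta members, and the mean beta level was 6.11 there, 6.57 to 7.01 in the other wildtype tumors, and 7.70, 7.54 and 6.94 in PRC2 loss tumors 1 to 3.

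**Figure D3:**
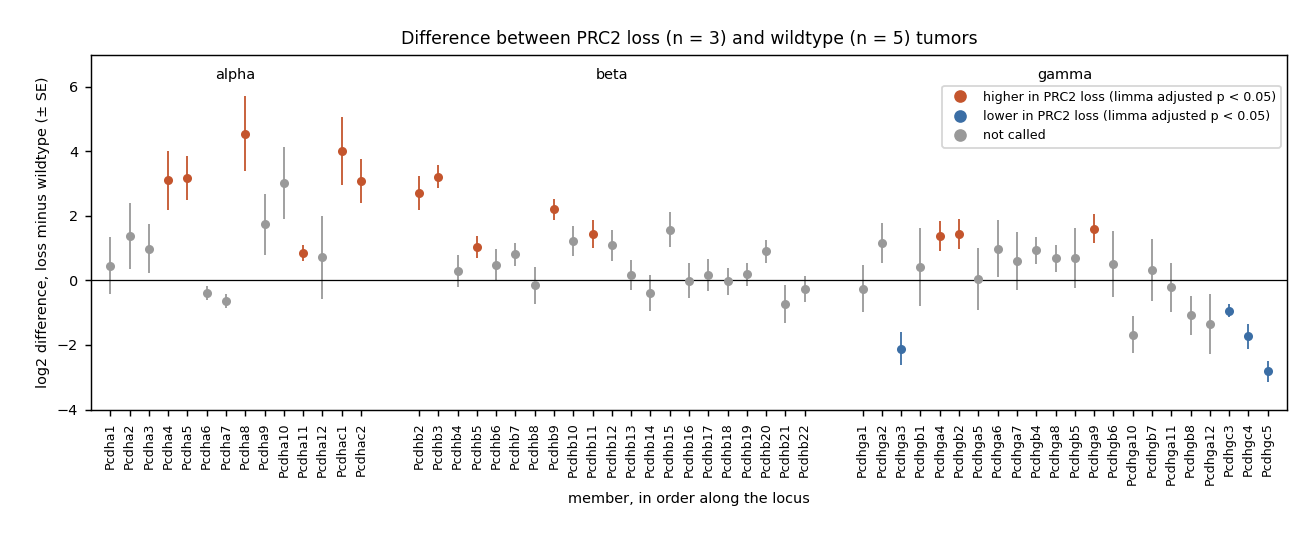
Log2 difference between PRC2 loss (n = 3) and PRC2 wildtype (n = 5) tumors (points, ± SE from limma) for all 57 members in order along the locus; orange, higher and blue, lower at a limma adjusted p below 0.05; gray, not called. The 5 beta calls lie between Pcdhb2 and Pcdhb11, and the gamma cluster ends with its 3 lower C-type members.

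Among the 19 gamma A and B members, 3 were higher and 1 was lower in PRC2 loss by limma. Pcdhga3 fell from 9.07, 9.91, 9.19, 9.88 and 10.44 in wildtype to 6.45, 7.50 and 8.80 in PRC2 loss, 4.33-fold lower with no overlap (log2 difference -2.11, SE 0.523; limma adjusted p = 0.0148). Without PRC2 loss tumor 1 or tumor 2 it missed the threshold (limma adjusted p = 0.0579 and 0.0631). Pcdhga9 rose from 6.06, 5.57, 5.45, 6.97 and 6.17 to 7.17, 8.26 and 7.53, 3.05-fold higher (limma adjusted p = 0.0227). Pcdhgb2, 2.70-fold higher, was at 8.93, 9.64 and 8.01 in PRC2 loss and at 7.17, 7.69, 7.67, 6.50 and 8.12 in wildtype, so the lowest PRC2 loss tumor overlapped the highest wildtype tumor (limma adjusted p = 0.0406). Pcdhga4, at 9.66, 7.97 and 8.39 against 7.95, 7.34, 7.56, 6.40 and 7.18, was 2.61-fold higher, its lowest PRC2 loss value next to the highest wildtype value (limma adjusted p = 0.0466). These 3 rises were all lost when tumors of 1 animal number were averaged. They were also lost without single tumors: Pcdhga9 without PRC2 loss tumor 2 or 3, Pcdhgb2 without wildtype tumor 1, 2, 3 or 4 or PRC2 loss tumor 1 or 2, and Pcdhga4 without wildtype tumor 2, 3, 4 or 5 or PRC2 loss tumor 1 or 3.

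Most gamma A and B members instead differed from one wildtype tumor to the next. Pcdhgb1 was at 10.32 and 11.17 in wildtype tumors 1 and 3 but at 6.58, 6.82 and 7.61 in tumors 2, 4 and 5, and it stood at 10.18, 7.16 and 9.42 in PRC2 loss. Pcdhgb6 was at 11.37 and 9.20 in wildtype tumors 3 and 4 and between 6.72 and 7.17 in the other 3. Pcdhgb5 was at 9.72 in wildtype tumor 2 and between 5.38 and 6.39 elsewhere in wildtype. Pcdhgb7 was at 10.04 in wildtype tumor 5 and between 5.65 and 6.47 elsewhere in wildtype. Pcdhga12 was at 10.41 and 9.86 in wildtype tumors 2 and 5 and between 6.78 and 7.06 in the other 3. Pcdhga5 peaked in wildtype tumor 5 (11.09), Pcdhga6 in wildtype tumor 3 (10.63) and Pcdhga1 in wildtype tumor 2 (9.68). Pcdhga10 had wildtype values of 10.85, 8.34, 9.0, 10.63 and 9.64 and PRC2 loss values of 8.56, 7.78 and 7.68 (limma adjusted p = 0.0503, or 0.0273 with animal numbers averaged). These members other than Pcdhgb1 and Pcdhga10 were named after their values were seen.

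Counted over all members, 13 of 95 wildtype gamma A and B values lay at least 2 log2 units (4-fold) above the median of the wildtype tumors, and they came from 10 members. Wildtype tumor 1 had 1 of them, tumor 2 had 3, tumor 3 had 4, tumor 4 had 2 and tumor 5 had 3. Of 57 PRC2 loss values 0 lay so far above the median of the PRC2 loss tumors, which is a median of only 3 tumors. Wildtype tumors 1 and 2, which share an animal number, had no such high member in common, and wildtype tumors 3 and 4, which share another, had Pcdhgb6 in common. Tumors of different animal numbers also had high members in common: Pcdhgb1 in wildtype tumors 1 and 3, and Pcdhga12 in wildtype tumors 2 and 5. Across the 5 wildtype tumors the median SD of the A and B members was 1.37, against 0.43 for all genes tested, 0.49 for the 4501 genes with a mean in the same range and 0.60 for the beta members. Related genes also had a wide spread there. The median SD was 1.29 for the numbered alpha members, many of them near the bottom of the scale. It was 1.25 for the classical and related cadherins and 0.83 for the non-clustered protocadherins. An SD above 1 was found for 12 of the 19 gamma A and B members (63.2%), against 17.4% of genes in their mean range and 0.0% of beta members. In PRC2 loss the median SD was 0.55 for the A and B members, 0.32 for all genes and 0.44 for genes of the same range, over 3 tumors of which 2 share an animal number. Whether the spread differed between the groups was not tested.

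**Figure D4:**
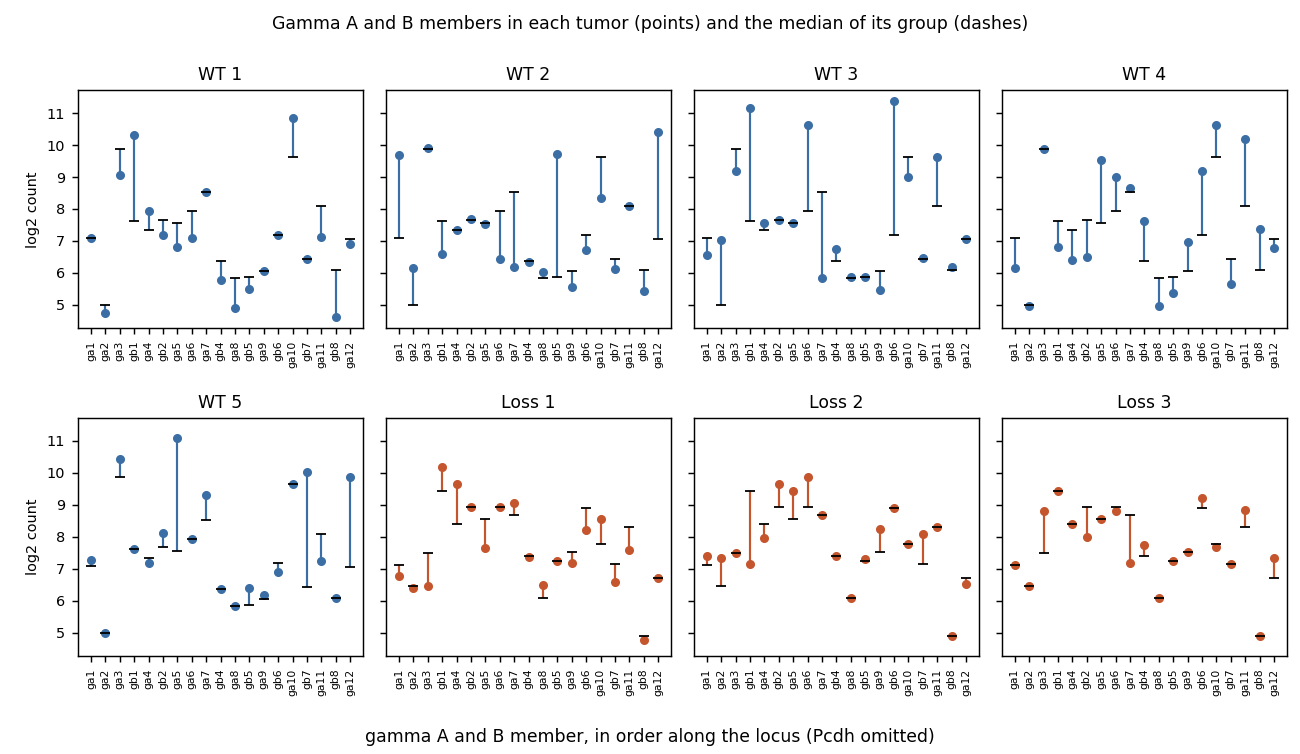
Quantile-normalized log2 counts of the 19 gamma A and B members (points, in order along the locus) in each of 5 PRC2 wildtype (blue) and 3 PRC2 loss (orange) tumors; dashes mark the median of the tumor's group and lines the distance to it. Long upward lines, such as Pcdhgb6 in wildtype tumor 3 (11.37) and Pcdhga5 in wildtype tumor 5 (11.09), fall on different members in different wildtype tumors.

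Linear values divided by exon length give an approximate share of each member in its tumor. The length includes the shared exons, whose reads were divided in an unknown way, and the offset of the log is unknown. These are therefore shares of the deposited values and not of transcripts. The 3 most abundant A and B members together took 66.0%, 52.2%, 65.7%, 53.5% and 56.3% of the summed A and B value in wildtype tumors 1 to 5 and 43.3%, 43.1% and 33.7% in PRC2 loss tumors 1 to 3. The share was lower in each PRC2 loss tumor than in each wildtype tumor. The leading member was Pcdhga10 in wildtype tumors 1 and 4, Pcdhga3 in tumor 2, Pcdhgb6 in tumor 3 and Pcdhga5 in tumor 5. In PRC2 loss it was Pcdhgb1, Pcdhga6 and Pcdhgb6 in tumors 1 to 3. Pcdhgc3 alone took 52.6% to 67.7% of the summed gamma value in wildtype and 49.2% to 55.2% in PRC2 loss. On the same scale, as log2 level per kb of exon, the gamma members next to Pcdhgc3 in wildtype, Pcdhga3 and Pcdhga10, averaged 7.46 and 7.45 per kb and did not differ beyond their spread. The highest beta member per kb was Pcdhb17 in wildtype (6.86) and Pcdhb9 in PRC2 loss (8.53), and the highest alpha member was Pcdhac2 in both (4.06 and 7.14).

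Regulators that select or silence protocadherin promoters changed in part. Of 15 such genes 0 were higher and 6 were lower in PRC2 loss by limma (0 and 6 at an unadjusted p under 0.05; median log2 difference -0.20). Smchd1, a chromosome-scale repressor that silences the clusters in some tissues, was at 11.71 to 12.17 in wildtype and 11.07 to 11.18 in PRC2 loss (log2 difference -0.78; limma adjusted p = 0.0031). Uhrf1, which guides maintenance DNA methylation, fell by 3.56 (limma adjusted p = 0.000217), the remodeler gene Hells, needed for normal DNA methylation, by 3.75 (0.000477), and the maintenance methyltransferase gene Dnmt1 by 1.02 (0.00561). The cohesin genes Rad21 and Smc3 were lower too, by 0.74 and 0.78 on the log2 scale. Ctcf, at 11.67 to 12.01 in wildtype and 11.64 to 11.72 in PRC2 loss, was not called (limma adjusted p = 0.525), nor did Dnmt3b, the methyltransferase that methylates these promoters in the embryo (0.552). In the same tumors all 10 proliferation markers were lower (mean level 9.93 to 11.52 in wildtype and 6.65 to 8.02 in PRC2 loss). Uhrf1, Hells and Dnmt1 are themselves induced in dividing cells, and the part of proliferation in their fall was not tested.

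Of 17 genes for protocadherin processing and signaling partners, among them the protease gene Adam10, the presenilin genes, the kinase genes Ptk2 and Fyn and the Axin1 gene, 0 were called by limma, with 2 higher and 3 lower at an unadjusted p under 0.05. Of 19 genes beside or between the clusters, 0 were higher and 5 were lower in limma (0 and 6 at an unadjusted p under 0.05; median -0.28). The 5 were Hars, Wdr55, Dnd1, Rell2 and Gnpda1. Taf7, a transcription factor subunit gene between the beta and gamma clusters, averaged 8.11 (SD 0.19, n = 5) in wildtype tumors and 8.17 (SD 0.22, n = 3) in PRC2 loss tumors (limma adjusted p = 0.833), and the histone deacetylase gene Hdac3, beyond the gamma cluster, also did not pass (limma adjusted p = 0.688). Of 12 non-clustered protocadherins, encoded singly elsewhere or nearby, 1 was higher and 5 were lower in limma (median -0.49): Pcdh11x, a gene on the X chromosome, was at 7.53, 8.57 and 6.43 in PRC2 loss and between 0.00 and 4.46 in wildtype (limma adjusted p = 0.00938), and Pcdh7 fell by 2.33 (limma adjusted p = 0.00122). Of 19 classical and related cadherins 7 were higher and 2 lower (median 0.00). The difference between these lists and the clustered members was not tested.

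These are bulk tumor values, in which fewer cells of a type and less RNA per cell cannot be told apart. Markers of several cell types moved with PRC2 status. All 10 myelin markers were higher in PRC2 loss (mean level 12.63 to 13.32 against 6.43 to 8.23; Gjb1 was at 0 in 2 tumors), as were 9 of 10 endothelial markers (11.51 to 12.54 against 9.73 to 10.38; none at 0), and 9 of 10 T and NK cell markers were lower (4.16 to 5.94 against 7.11 to 8.88; none at 0). Of 10 macrophage markers 7 were lower and 1 higher (10.91 to 11.47 against 11.67 to 12.51; none at 0). Of 10 neuron markers, the cells in which these clusters are best known, 1 was higher and 3 were lower (4.49 to 5.54 against 5.67 to 6.89), with Elavl3 at 0 in 2 tumors and Snap25 at 0 in 1. Of 10 fibroblast and perineurial markers 3 were higher and 1 lower, and of 10 pericyte and smooth muscle markers 3 were higher and 0 lower in limma (5 and 0 at an unadjusted p under 0.05), with overlapping mean levels. PRC2 loss tumor 3, the lowest of its group for Pcdhac1, Pcdhac2, Pcdhb2, Pcdhb3 and Pcdhb9, had the highest mean level of its group for endothelial (12.54), pericyte (13.05), fibroblast (13.10) and skeletal muscle markers (9.42, against 3.69 and 6.13). Wildtype tumors 1 and 2 had skeletal muscle marker means of 12.72 and 12.11, against 3.87 to 5.74 in the other wildtype tumors; 0 of 10 muscle markers were called by limma, and 0 at an unadjusted p under 0.05. The part of these cell types in the protocadherin results was not tested.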

How the data were processed

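The labels' protocols give Trizol extraction and poly-A TruSeq libraries for the 8 tumors. Trim Galore, STAR 2.6, Partek 7.0 and build mm10 appear in the submitters' processing notes; for annotation, counting and strand, the choice is not given in the sources used here. Values are quantile-normalized log2 gene counts as the authors deposited them, so library totals are lost, depth is unknown and no counting interval is given. Columns were matched to tumors by description and grouped by title.

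All 20943 genes but the 136 constant ones were fitted together (limma 3.58.1, R 4.3.3; variance trend, two-sided, Benjamini-Hochberg over 20807 genes, threshold 0.05), with no pseudocount or filter. Simulated data tested this comparison on 20807 genes: 26%, 70%, 88% and 80% of 50 genes shifted by 1, 2, 3 and 4 log2 units were recovered, with 6 calls among 20607 unchanged genes. The shifted genes were drawn only from those with higher mean values, and every shift was upward in PRC2 loss. Noise was independent between genes and tumors. The rates therefore do not cover low alpha members, lower calls, shared exons or common animal numbers. Values per tumor are given for C-type members, for the 4 called members with the smallest p and the highest mean in the alpha, beta, gamma A and gamma B groups, and for called members against their cluster's majority; others are marked. 1 gene of the regulator list is not reported here. The members and lists were chosen with earlier results of these data known. Exon lengths came from GENCODE M21 (56 of 57 members matched; Pcdha10 did not) and positions from RefSeq GRCm38.p6 (57 of 57). Promoter and protein sequences of the members were not used here.

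Whether tumors with the same animal code came from separate mice is not stated. Alternatives were a low-value filter (mean below 3), pseudocounts of 1 and 16, 2 centrings, no variance trend, array weights, animal numbers averaged or as a block, the replicate number as a block, and each tumor left out.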

Additional observations from a re-analysis of the deposited data

Results flagged for a closer look

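Among the 5 wildtype tumors, 1 tumor stood apart from the other 4 for 8 of the 57 members, by the gap to its nearest neighbor as a share of the whole range (Dixon's test, critical value 0.71 for 5 values). Chance flags about 1 in 20 groups of normally distributed values, which values near the bottom of the scale need not follow. The share of all genes flagged in the same tumors was not counted, so the 8 have no background beside them. Alpha or gamma members share exons, so the 8 are not independent. Of the gamma members, Pcdhgb5 was at 9.72 in wildtype tumor 2, with the next tumor at 6.39, and Pcdhgb7 was at 10.04 in wildtype tumor 5, with the next at 6.47. In the alpha cluster Pcdha8 was at 5.40 and Pcdha1 at 3.56 in wildtype tumor 2, Pcdha2 was at 3.57 in wildtype tumor 4 and Pcdha3 at 2.54 in wildtype tumor 1; the next tumor was at 1.18 for each, below its lowest common step. Of the beta members, Pcdhb13 was low in wildtype tumor 4, at 4.46 with the next tumor at 5.65, and Pcdhb8 in wildtype tumor 2, at 3.29 with the next at 4.36.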

How the results depend on the processing

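The counts of called members changed with several settings, and the cause was not tested except where the setting uses fewer members or tumors. Shares of all genes called were counted only for the fit without any of these changes. The counts under the other settings therefore cannot be set against all genes. Higher alpha members numbered 6 of 14, and 3 once members with a mean below 3 were left out, which kept 5. That mean was taken over both groups, so members high only in PRC2 loss could pass. Higher beta members numbered 5 of 21, but 10 with housekeeping centring, 10 with array weights and 3 with animal numbers averaged or as a random block. Higher gamma members numbered 3, but 2 with array weights or no variance trend and 0 with animal numbers averaged or as a random block (3 at an unadjusted p under 0.05 in both). Lower members numbered 4, but 2 with housekeeping centring, 6 with array weights and 5 with no variance trend or the low-value filter; array weights and no trend each added the alpha member Pcdha7. A random block for animal number ended the calls of Pcdha4, Pcdha11, Pcdhb5, Pcdhb11 and the 3 higher gamma members. Leaving out 1 tumor at a time gave 2 to 6 higher alpha, 3 to 6 higher beta, 1 to 2 higher gamma and 3 to 5 lower members; the lowest counts came without PRC2 loss tumor 2 for alpha, PRC2 loss tumor 1 or 2 for beta, and wildtype tumor 3 or any PRC2 loss tumor for gamma. With the replicate block the counts were 0 alpha, 2 beta and 0 gamma members higher and 0 lower in limma (7, 4, 6 and 5 at an unadjusted p under 0.05). The labels do not pair tumors of the same replicate number. The deviations of such tumors from their group means correlated at -0.155, 0.0945 and -0.0482 over genes. With so few tumors, these correlations cannot decide whether same-numbered tumors share more than a number. No called member whose values per tumor were given by the naming rule changed direction in any alternative that tested it. For the other called members, Pcdha4, Pcdha11 and Pcdhb5, direction was checked only in the alternatives that kept the call. Depth is unknown, and values near 0 limit the alpha members most.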
